A study of Homo sapiens with 44 samples.

Results

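Peaks of open chromatin named for the integrin and laminin genes were examined in Ccd18-Co, a line of human colon fibroblasts, by ATAC-seq, a method that sequences the DNA fragments an enzyme, the transposase, releases from accessible sites. The members are the peaks whose assigned gene is an integrin alpha or beta chain (ITGA or ITGB) or a laminin alpha, beta or gamma chain (LAMA, LAMB or LAMC). They were chosen by gene name, with earlier results of these data known. There were 1310 such peaks, for 38 genes, among 407383 peaks of the series. The series holds 44 libraries, 4 in each of 11 groups. Serum-starved cells were kept for 24 h either unstimulated or with 1 cytokine, which was IL6, IL13, IL17A, IL22, IFNA, IFNG, TGFB1, TNF or OSM at 10 ng/ml, or IL1B at 0.1 ng/ml. Every group is the same cell line, so each comparison describes 1 line. Nothing states that the 4 libraries of a group came from separate cultures, so p-values measure the spread between these libraries, which may be technical.

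Integrins are receptors made of an alpha and a beta chain that hold cells to the matrix around them and pass force and signals across the membrane. The pairing of chains largely sets the ligand, such as collagen, fibronectin or laminin. Laminins are trimers of an alpha, a beta and a gamma chain that form the network of basement membranes, and several integrins are their receptors. Fibroblasts grip and contract tissue through collagen and fibronectin receptors, and integrins with the alpha V chain can release TGF-beta from its latent form.

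Accessibility is given as coverage per Mb, the read coverage of a peak divided by the megabases (Mb) of coverage in all peaks of the library, after a factor for library composition. Total coverage in peaks ran from 148.8 Mb (IL6 replicate 4) to 823.1 Mb (IFNA replicate 2). In unstimulated cells the start-site peaks of the fibroblast genes COL1A1, COL1A2, COL3A1, PDGFRB, THY1 and VIM lay between percentiles 74.6 and 94 of all tested peaks. Those of the endothelial genes PECAM1, CDH5, VWF and TIE1 lay between 30.5 and 52.6, and no peak lay within 1 kb of a start of KRT20, VIL1, CD3E or SPI1. The start peaks of the epithelial genes EPCAM, CLDN3 and CDH1 lay at percentiles 76.5, 76.4 and 10.3, that of the leukocyte gene CD14 at 87.1, and those of the smooth muscle genes MYH11 and DES at 70.6 and 39.4. The starts of PTPRC, a leukocyte gene, and ACTG2, a smooth muscle gene, were open, at 8.25 ± 1.95 and 23.4 ± 1.57 coverage per Mb (SD, n = 4).

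The name of a peak comes from the deposited annotation and is not a measured target. For 1186 of the 1310 members the named gene had the nearest protein-coding start in GENCODE v44 (hg38), and 671 lay inside the body of the named gene. By the deposited classes 804 members (61.4%) were intronic, 378 (28.9%) distal, 69 (5.27%) exonic and 59 (4.5%) at promoters. LAMA4, the alpha chain of vessel-wall laminins, had 126 peaks, of which 10 lay inside the gene and the farthest lay 692 kb away. No peak named for ITGA1, ITGA7, ITGB6 or ITGB8 lay inside those genes. Inside ITGA7, ITGB6 and ITGB8, 13, 13 and 24 peaks carry other names. Of the 68 peaks inside ITGA1, a collagen receptor chain, 48 are named for PELO and the other 20 carry names of other members.

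Sequences are printed for 3 of the 4 members with the smallest p for any difference among the 11 groups (moderated F), as the central 300 bases of each peak, from hg38, plus strand, 5′ to 3′. Capitals mark matches on either strand to strings for AP-1 (TGANTCA), GAS (TTCNNNGAA), SMAD (GTCTAGAC), TEAD (CATTCC), C/EBP (TTGCNNAA) and RUNX (TGTGGT), or to the NF-kB, ISRE and STAT6 strings. The windows are chr10:15745768-15746067 for ITGA8, chr15:68354944-68355243 for the ITGA11 intron and chr15:68441273-68441572 for the peak upstream of ITGA11.
ITGA8, upstream: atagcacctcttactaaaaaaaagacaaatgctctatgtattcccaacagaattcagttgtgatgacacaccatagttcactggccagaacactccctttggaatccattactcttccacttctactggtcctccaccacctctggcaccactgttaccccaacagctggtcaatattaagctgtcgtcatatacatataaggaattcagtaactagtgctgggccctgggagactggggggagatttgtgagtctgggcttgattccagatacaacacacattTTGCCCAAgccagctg
ITGA11, intron: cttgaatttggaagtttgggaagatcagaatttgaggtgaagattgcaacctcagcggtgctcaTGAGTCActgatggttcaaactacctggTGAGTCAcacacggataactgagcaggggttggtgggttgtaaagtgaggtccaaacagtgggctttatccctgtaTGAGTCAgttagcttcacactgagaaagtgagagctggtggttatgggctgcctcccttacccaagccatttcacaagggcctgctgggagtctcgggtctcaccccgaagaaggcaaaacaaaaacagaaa
ITGA11, upstream: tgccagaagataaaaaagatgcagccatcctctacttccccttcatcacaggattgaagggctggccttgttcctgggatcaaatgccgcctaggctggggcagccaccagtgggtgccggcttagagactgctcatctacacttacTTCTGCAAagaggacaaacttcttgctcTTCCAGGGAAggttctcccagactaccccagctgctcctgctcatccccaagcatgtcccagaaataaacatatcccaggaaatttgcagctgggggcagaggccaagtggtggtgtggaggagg

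The window in the ITGA11 intron held 3 copies of the AP-1 string and no other string searched. The window upstream of ITGA11 held 1 STAT6 and 1 C/EBP match, and the ITGA8 window held 1 C/EBP match. Over all members 22.3% of windows held the AP-1 string, beside 21.5% of all tested peaks. A match describes letters of the reference, not binding.

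The first comparisons asked which members changed with each cytokine against unstimulated cells. With TNF, 45 members rose and 23 fell at an adjusted p under 0.05 (limma, 407156 peaks tested), or 3.44% and 1.76% of members, beside 2.68% and 1.46% of all tested peaks. With IL1B, 19 members rose and 28 fell, or 1.45% and 2.14% of members, beside 1.44% and 1.75% of all tested peaks. With IFNG, 13 members rose and 4 fell, or 0.992% and 0.305% of members, beside 1.33% and 0.232% of all tested peaks. With IFNA, 5 members rose and 2 fell, or 0.382% and 0.153% of members, beside 0.356% and 0.295% of all tested peaks. With OSM, 41 members rose and 18 fell, or 3.13% and 1.37% of members, beside 4.12% and 1.05% of all tested peaks. With TGFB1, 29 members rose and 36 fell, or 2.21% and 2.75% of members, beside 1.10% and 2.87% of all tested peaks. With IL13, 11 members rose and 12 fell, or 0.84% and 0.916% of members, beside 0.756% and 0.645% of all tested peaks. The share of members that rose with TGFB1 lay above its background, and most other shares lay near theirs. This TGFB1 gap was narrower under other scalings. The members that rose were 34 with library totals and 37 with median-of-ratios scaling. Higher peaks went from 27.7% of the TGFB1 calls over all tested peaks to 47.8% and 58.6%.

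With IL6, IL17A and IL22, 0 members passed in limma, beside 0.0646%, 0.0305% and 0.0840% of all tested peaks, and 110, 85 and 104 members had an unadjusted p under 0.05. These are 8.4%, 6.49% and 7.94% of members, beside 8.51%, 6.28% and 7.59% of all tested peaks. The IL6 count was 1 with a pseudocount of 2, with a filter of mean coverage of at least 1 or with a replicate block, and 2 without IL6 replicate 1 or IL6 replicate 2. Across the 10 cytokines 186 members (14.2%) were called at least once, beside 13.3% of all tested peaks. Of these, 122 were called with 1 cytokine, 64 with 2 or more and 26 with 3 or more, or 9.31%, 4.89% and 1.98% of members, close to the 8.75%, 4.56% and 1.68% of all tested peaks. A difference among the 11 groups was called at 345 members (26.3%), beside 22.2% of all tested peaks.

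**Figure D1:**
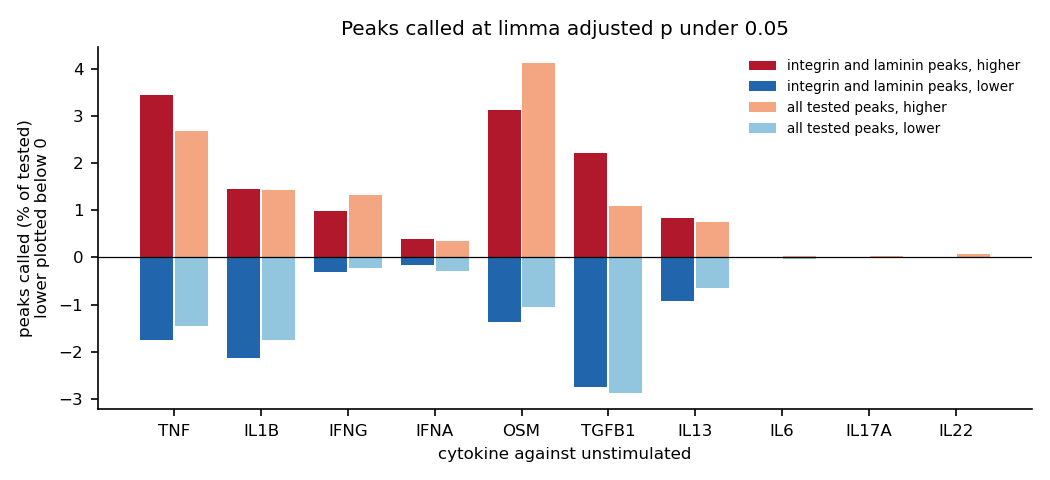
Percent of the 1310 integrin and laminin peaks and of all 407156 tested peaks that were higher or lower with each cytokine than in unstimulated cells (limma adjusted p under 0.05). With TGFB1 2.21% of members were higher, beside 1.10% of all peaks, a gap that narrowed under other scalings. With IL6, IL17A and IL22 no member was called.

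Counts moved by over 1.5 times without single libraries. The TGFB1 count of 65 was 42 without unstimulated replicate 2 and 40 without unstimulated replicate 3, and the TNF count of 68 was 45 without TNF replicate 1 or TNF replicate 2. The OSM count of 59 was 32 without unstimulated replicate 3 and 35 without OSM replicate 1. The IL13 count of 23 was 13 without unstimulated replicate 3 and 12 without unstimulated replicate 4. The IFNG count of 17 was 10 without unstimulated replicate 3 and 11 without IFNG replicate 3 or IFNG replicate 4. The IFNA count of 7 was 3 without unstimulated replicate 4 and 4 without IFNA replicate 2 or IFNA replicate 4.

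The balance of higher and lower members also moved with the scaling of libraries. Members that rose were 69.5% of the OSM calls, but 45% with library totals and 41.5% with median-of-ratios scaling. Over all tested peaks these shares were 79.6%, 55.8% and 53%, so the balance moved there too. For TGFB1 the share of members was 44.6%, and 61.8% and 68.5% under those scalings, beside 27.7%, 47.8% and 58.6% over all tested peaks. For TNF it was 66.2%, 56% and 59.7%, beside 64.7%, 58.2% and 61.8%. The median log2 change of all tested peaks went from -0.10 to -0.21 and -0.22 for OSM, and from 0.05 to 0.12 and 0.16 for TGFB1. The median coverage per Mb of the members was 0.682 to 0.787 in the OSM libraries, 1.01 to 1.05 in the TGFB1 libraries and 0.903 to 0.942 in the unstimulated ones, and the part of this in the calls was not tested.

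Among alpha chains, ITGA2, a collagen receptor chain, had 46 peaks, of which 6 rose with TNF, 5 with IL1B, 3 with OSM and 2 with TGFB1, and none was called lower with any of the 10 cytokines. ITGA11, a collagen receptor chain of fibroblasts, had 51 peaks, of which 5 fell with IL1B and 2 with TNF, and none was called higher with either. Of the 60 peaks of ITGA8, a chain that binds fibronectin and related ligands, 3 fell with IL1B and 2 with TGFB1. ITGA4, ITGA7, ITGA10, ITGAL and ITGAX had no called peak with a cytokine, and ITGA4, with 19, had the most peaks of these. Of all tested peaks 86.7% had no call with a cytokine. With TNF 2.68% of all tested peaks rose and 1.46% fell, and with IL1B 1.44% rose and 1.75% fell. With OSM 4.12% rose, and with TGFB1 1.10% rose and 2.87% fell.

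Among beta chains, ITGB1, the partner in most matrix receptors, had 79 peaks, of which 8 rose with OSM, 6 with TGFB1, 3 with TNF and 3 with IL1B. ITGB3, a chain of the vitronectin receptor, had 38 peaks, of which 5 rose with TNF and 4 with OSM. Of 33 peaks of ITGB5, another partner of alpha V, 3 fell with IL13 and none was called higher. Over the 6 non-leukocyte beta genes 13 of 208 peaks rose and 3 fell with OSM (median log2 change 0.06, beside -0.10 over all tested peaks). Of all tested peaks 4.12% rose and 1.05% fell with OSM. With TGFB1 1.10% rose, with TNF 2.68% and with IL1B 1.44%, and with IL13 0.645% fell.

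Among laminins, LAMA3, an alpha chain of epithelial laminin, had 42 peaks, of which 5 rose with OSM and 4 with TNF. LAMB1, a widely used beta chain, had 62 peaks, of which 4 fell with TGFB1 and 3 with IL1B, while 2 rose with IL13. LAMB4, a less studied beta chain, had 50 peaks, of which 4 fell with TNF and 3 with IL1B, while 3 rose with IL13. Over the 4 laminin beta genes 9 of 130 peaks fell and 2 rose with TGFB1 (median log2 change -0.25, beside 0.05 over all tested peaks). With IL13 5 rose and 1 fell. Of all tested peaks 2.87% fell and 1.10% rose with TGFB1, and 0.756% rose and 0.645% fell with IL13. With TNF 2.68% rose and 1.46% fell, with IL1B 1.75% fell and with OSM 4.12% rose.

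**Figure D2:**
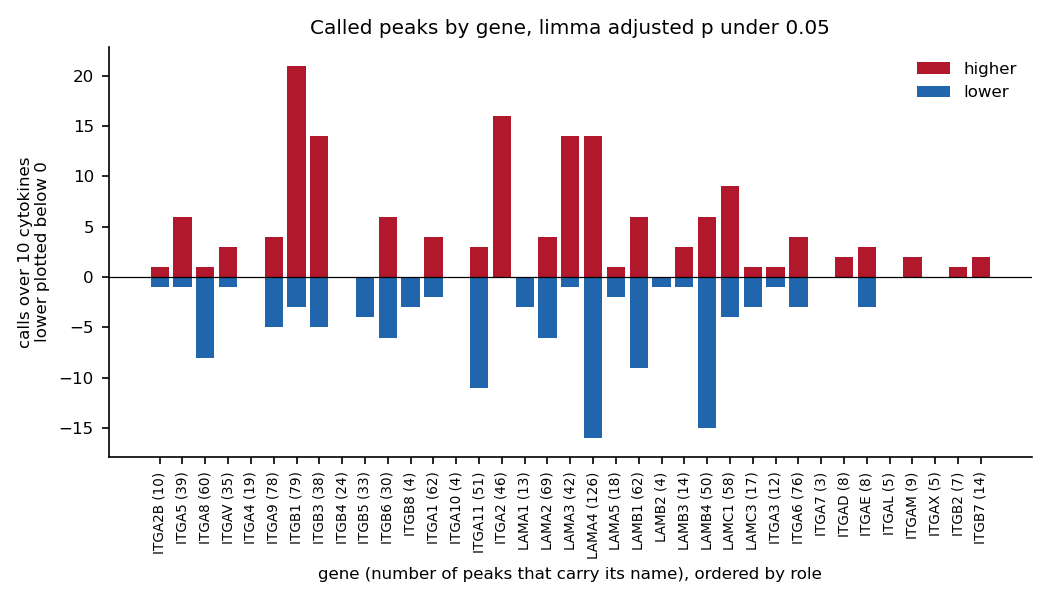
Number of calls over the 10 cytokines for 37 of the 38 genes (limma adjusted p under 0.05), higher and lower, with the number of peaks of each gene. ITGB1 has 21 higher calls and LAMA4 has 16 lower calls, and a gene with more peaks has more chances of a call.

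The ITGA8 peak 26 kb upstream (chr10:15745667-15746167) gave 8.14, 9.65, 12 and 13.9 coverage per Mb in the unstimulated libraries, 1.9, 2.04, 2.58 and 2.82 with IL1B and 2.81, 2.96, 3.49 and 4.23 with TGFB1. Both cytokine groups lay below every unstimulated library. The log2 changes were -2.00 ± 0.21, adjusted p = 1.45e-15 (SE, limma) with IL1B and -1.55 ± 0.21, adjusted p = 1.49e-09 with TGFB1. IL13 gave 13.8, 17.7, 20.4 and 29.4, overlapping the unstimulated range (log2 change 0.84 ± 0.21, adjusted p = 0.0111), a call lost without unstimulated replicate 3 or 4 or IL13 replicate 1 (adjusted p = 0.0536 to 0.167). The TNF call (log2 change -0.69 ± 0.21, adjusted p = 0.0316) was lost without unstimulated replicate 1 or 2 or TNF replicate 1, 3 or 4 (adjusted p = 0.0836 to 0.198). In the direct comparison TGFB1 lay below IL13 by a log2 difference of -2.39 ± 0.21, adjusted p = 6.43e-22.

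Different cytokines marked the ITGA11 peaks printed above. The intronic peak (chr15:68354843-68355343) gave 16, 16.9, 20.1 and 21.2 coverage per Mb unstimulated, 39.2, 41.4, 43.4 and 44.5 with OSM and 6.4, 6.45, 8.79 and 9.74 with IL13. OSM libraries lay above and IL13 libraries below all unstimulated ones, with log2 changes of 1.17 ± 0.15, adjusted p = 3.7e-10 (limma) and -1.20 ± 0.15, adjusted p = 4.09e-10. The TGFB1 call at this peak (log2 change 0.48 ± 0.15, adjusted p = 0.0456) was lost without unstimulated replicate 1, 2 or 3 or TGFB1 replicate 1, 2 or 3 (adjusted p = 0.0559 to 0.254) as well as with no filter on low values, quality weights or a GC correction. The upstream peak (chr15:68441172-68441672, 9.26 kb from the start) gave 6.86, 8.54, 11.4 and 12.9 unstimulated, 2.42, 3.23, 3.65 and 4.05 with IL1B and 3.24, 4.61, 5.89 and 6.13 with TNF. Neither group overlapped the unstimulated libraries there, and the log2 changes were -1.42 ± 0.2, adjusted p = 5.4e-09 and -0.93 ± 0.2, adjusted p = 0.000419.

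ITGA2 had an intronic peak (chr5:53037397-53037897) at 3.31, 3.66, 5.51 and 7.68 coverage per Mb unstimulated, 10.9, 13.9, 16 and 19 with IL1B, 8.24, 12.6, 13.2 and 14.3 with TNF and 8.6, 8.73, 8.79 and 8.84 with OSM. All 3 groups lay above the unstimulated libraries. Log2 changes were 1.52 ± 0.22, adjusted p = 1.13e-08 (limma), 1.22 ± 0.22, adjusted p = 7.26e-06 and 0.81 ± 0.22, adjusted p = 0.0103. TGFB1 overlapped the unstimulated range, at 7.33 to 10.8 (log2 change 0.84 ± 0.22, adjusted p = 0.00735).

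ITGB1 had peaks far upstream that changed with partly different cytokines. The peak 198.05 kb away (chr10:33156030-33156530) gave 10.9, 15.1, 15.4 and 15.6 coverage per Mb unstimulated, 25, 26.4, 28.8 and 29.3 with OSM and 3.55, 4.91, 7.53 and 10.2 with IL13. OSM libraries lay above and IL13 libraries below the unstimulated range (log2 changes 0.93 ± 0.17, adjusted p = 1.89e-05 and -1.15 ± 0.17, adjusted p = 1.69e-07, limma). The peak 171.94 kb away (chr10:33129921-33130421) gave 2.54, 2.78, 3.27 and 4.25 unstimulated and 12, 12.2, 13.1 and 15 with TGFB1 (log2 change 1.89 ± 0.27, adjusted p = 9.52e-09). The peak 175.99 kb away (chr10:33133974-33134474) gave 1.69, 2.16, 2.65 and 2.79 unstimulated and 6.39, 6.67, 8.12 and 9.6 with IL1B (log2 change 1.54 ± 0.28, adjusted p = 1.91e-05). Neither of these groups overlapped the unstimulated libraries. OSM was also called higher at the peak 171.94 kb away (log2 change 0.82), with libraries at 4.65 to 6.73.

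Closer to ITGB1, a peak in an intron of ITGB1 and ITGB1-DT transcripts (chr10:32992741-32993241) gave 0.217, 0.356, 0.402 and 0.751 coverage per Mb unstimulated and 3.96, 4.73, 4.77 and 8.74 with TGFB1. The groups did not overlap (log2 change 2.67 ± 0.39, adjusted p = 2.97e-08, limma). Against TNF, OSM and IL13 directly, TGFB1 was higher at this peak by log2 differences of 2.02 ± 0.39, adjusted p = 4.98e-05, 2.90 ± 0.39, adjusted p = 2e-10 and 2.32 ± 0.39, adjusted p = 7.65e-07.

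ITGB3 had an intronic peak 13.65 kb from its start (chr17:47267225-47267725) at 9.19, 12.4, 12.5 and 14.4 coverage per Mb unstimulated, 25.5, 27.8, 29 and 31.3 with OSM and 18, 18.5, 19.7 and 22.4 with TGFB1. Both groups lay above every unstimulated library, with log2 changes of 1.21 ± 0.17, adjusted p = 2.3e-08 (limma) and 0.69 ± 0.17, adjusted p = 0.00578. The TGFB1 call was lost without unstimulated replicate 1 (adjusted p = 0.0755), and the TNF call (log2 change 0.56 ± 0.17, adjusted p = 0.0364) was lost without unstimulated replicate 1, 3 or 4 or TNF replicate 1, 2, 3 or 4 (adjusted p = 0.0544 to 0.243).

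ITGB8 forms a receptor with alpha V that activates latent TGF-beta. Its peak 7.11 kb upstream (chr7:20323537-20324037) gave 6.63, 6.64, 6.93 and 7.36 coverage per Mb unstimulated, 1.21, 2.01, 2.76 and 3.22 with OSM and 1.27, 1.93, 2.18 and 4.77 with TGFB1. Both groups lay below all unstimulated libraries, with log2 changes of -1.46 ± 0.24, adjusted p = 1.13e-06 (limma) and -1.40 ± 0.24, adjusted p = 3.34e-06. An intronic ITGB5 peak (chr3:124858936-124859436) fell with IL13, from 4.6, 5.09, 6.29 and 7.1 to 1.29, 1.61, 2.63 and 4.04 (log2 change -1.20 ± 0.25, adjusted p = 0.00112).

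Chains known from leukocytes also had peaks that responded in this line. ITGAE, the alpha E chain of tissue-resident lymphocytes, had an intronic peak (chr17:3794932-3795432) at 2.23, 2.83, 3.74 and 5.11 coverage per Mb unstimulated and 13.3, 13.9, 14 and 18 with TGFB1, and no library of another group exceeded 6.47. The log2 change was 1.99 ± 0.28, adjusted p = 8.01e-09 (limma). The IL13 call at this peak (log2 change -1.12 ± 0.28, adjusted p = 0.0112) was lost without unstimulated replicate 1 or IL13 replicate 3 (adjusted p = 0.109 to 0.111). The most open peak at an annotated ITGAE start is named for HASPIN (chr17:3737791-3738291) and lies far from the main start of the gene. It went the other way with TGFB1, from 20, 30.3, 31 and 31.5 unstimulated to 11.7, 14.2, 14.7 and 16.6. It gave 12.6, 12.8, 13.3 and 16.9 with IL1B, and neither group overlapped the unstimulated libraries (log2 changes -0.94 ± 0.14, adjusted p = 1.5e-08 and -0.98 ± 0.14, adjusted p = 2.09e-09, limma). With TNF it gave 16.7, 17.5, 20.6 and 22.1, overlapping the unstimulated range (log2 change -0.53 ± 0.14, adjusted p = 0.00553). The IL13 call there (log2 change 0.49 ± 0.14, adjusted p = 0.0326) was lost without unstimulated replicate 4 or IL13 replicate 1, 2 or 4 (adjusted p = 0.0654 to 0.367). ITGAM, a myeloid alpha chain, had an intronic peak (chr16:31265260-31265760) at 0.404, 0.554, 0.933 and 1.43 unstimulated and 5.68, 6.24, 7.23 and 7.25 with TNF, above all other libraries (log2 change 2.47 ± 0.37, adjusted p = 4.9e-08). IL1B gave 1.42, 2.24, 3.49 and 4.09, overlapping the unstimulated range (log2 change 1.30 ± 0.37, adjusted p = 0.0235). The start of ITGAM was at 0.919 ± 0.262 (SD, n = 4) in unstimulated cells. ITGB2, the common leukocyte beta chain, had a peak over a UTR (chr21:44928536-44929036), within ITGB2-AS1 too, that rose with OSM from 1.73, 2.21, 2.27 and 2.52 to 5.67, 6.34, 6.71 and 6.82 (log2 change 1.36 ± 0.31, adjusted p = 0.00114).

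An intronic LAMB4 peak, also among the 4 members with the smallest moderated F p, gave 13.1, 13.2, 13.9 and 17.5 coverage per Mb unstimulated, 2.18, 2.65, 4.29 and 4.87 with TNF, 6.07, 7.15, 7.97 and 8.92 with IL1B and 6.46, 6.56, 8.37 and 8.56 with TGFB1. All 3 groups lay below the unstimulated libraries. Log2 changes were -1.95 ± 0.19, adjusted p = 2.13e-18 (limma), -0.90 ± 0.19, adjusted p = 0.000309 and -0.90 ± 0.19, adjusted p = 0.000272. IL13 gave 21.2, 21.2, 22.5 and 24.1, above every unstimulated library, with a log2 change of 0.61 ± 0.19, adjusted p = 0.068, which did not pass.

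LAMB1 had an intronic peak 7.45 kb from its start (chr7:107995462-107995962) at 10.3, 11.3, 11.5 and 16.4 coverage per Mb unstimulated, 4.83, 5.31, 5.98 and 6.12 with TGFB1, 4.96, 7.55, 7.56 and 8.51 with TNF and 18.6, 18.7, 21.3 and 22.1 with IL13. TGFB1 and TNF lay below and IL13 above all unstimulated libraries. The log2 changes were -1.07 ± 0.18, adjusted p = 2.87e-06 (limma), -0.75 ± 0.18, adjusted p = 0.00227 and 0.70 ± 0.18, adjusted p = 0.0162. The TNF call was lost without unstimulated replicate 2 or TNF replicate 2 (adjusted p = 0.0538 to 0.0608), and the IL13 call was lost without unstimulated replicate 1, 3 or 4 or IL13 replicate 3 or 4 (adjusted p = 0.0531 to 0.109). In all, 8 members were called in opposite directions by different cytokines, and IL13 was among the cytokines at each of the 8. It was the cytokine with the higher call at 5 of them, named for ITGA8, LAMB1, LAMC1 and LAMB4. The share of such peaks among all tested peaks was not computed. The IL13 calls at the ITGA8, LAMB1, LAMC1 and ITGAE peaks of these 8 were each lost without at least 1 library.

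LAMA3 had an intronic peak 33.48 kb from its start (chr18:23722680-23723180) at 2.01, 2.33, 2.48 and 3.07 coverage per Mb unstimulated and 8.38, 10.7, 11.3 and 13.6 with OSM, without overlap (log2 change 1.94 ± 0.29, adjusted p = 9.24e-08, limma). A LAMA3 peak 135.46 kb from the start (chr18:23824665-23825165) rose with TNF, from 0.345 ± 0.283 to 3.06 ± 1.2 (SD, n = 4, log2 change 2.07 ± 0.38, adjusted p = 1.66e-05). IL1B was also called higher at this LAMA3 peak (log2 change 1.3). LAMC1, the common gamma chain, had an intronic peak (chr1:183093679-183094179) at 4.83, 5.3, 6.54 and 7.3 unstimulated and 13.6, 18, 18.4 and 18.9 with OSM (log2 change 1.46 ± 0.2, adjusted p = 4.37e-09). TNF and TGFB1 libraries also lay above the unstimulated ones at the LAMC1 peak, at 8.69 to 11.7 and 9.56 to 11.3 (log2 changes 0.72 ± 0.2, adjusted p = 0.0139 and 0.71 ± 0.2, adjusted p = 0.0178). IL1B was called higher there too (log2 change 0.69), though its libraries, at 6.99 to 14.2, overlapped the unstimulated range. An intronic peak of LAMC3, a gamma chain, (chr9:131013866-131014366) fell with OSM, from 1.78, 1.95, 2.04 and 2.21 to 0, 0.409, 0.486 and 0.929 (log2 change -1.48 ± 0.34, adjusted p = 0.00171).

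Peaks named for LAMA4 that rose with IFNG lay outside the gene. The peak 283.38 kb away (chr6:112537698-112538198), with RFPL4B as the nearest coding start, gave 0.0487, 0.445, 1.05 and 1.53 coverage per Mb unstimulated and 4.91, 6.14, 6.16 and 6.79 with IFNG. The peak 34.05 kb away, in an intron of LAMA4-AS1 (chr6:112288366-112288866), gave 0.674, 1.9, 1.98 and 2.25 unstimulated and 7.23, 8.26, 8.3 and 8.32 with IFNG. Neither IFNG group overlapped the unstimulated libraries, with log2 changes of 2.52 ± 0.39, adjusted p = 3.29e-07 (limma) and 2.02 ± 0.32, adjusted p = 7.42e-07. IFNA was below IFNG at both, by log2 differences of -2.64 ± 0.39, adjusted p = 2.65e-07 and -1.80 ± 0.32, adjusted p = 5.86e-05. A further peak 386.5 kb away (chr6:112640812-112641312) rose from 0.606 ± 0.428 to 4.03 ± 0.686 (SD, n = 4, log2 change 2.10 ± 0.38, adjusted p = 2.7e-05).

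Another LAMA4 peak in LAMA4-AS1 (chr6:112304608-112305108) gave 3.44, 3.58, 3.74 and 4.29 coverage per Mb unstimulated and was lower with 4 cytokines. It gave 1.06 to 1.57 with TNF, 0.459 to 2.15 with IL1B, 0.885 to 2.66 with OSM and 1.04 to 1.6 with IFNA, each below the unstimulated libraries. The log2 changes were -1.22 ± 0.31, adjusted p = 0.00418 (limma), -1.58 ± 0.31, adjusted p = 7.8e-05, -1.21 ± 0.31, adjusted p = 0.00503 and -1.31 ± 0.31, adjusted p = 0.00901. The peak 103.5 kb away (chr6:112357816-112358316) rose with IL1B, from 1.41 ± 0.229 to 6.19 ± 2.72 (SD, n = 4, log2 change 1.70 ± 0.3, adjusted p = 1.13e-05). It was also called higher with TNF and TGFB1 (log2 changes 1.39 and 1.29).

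Several further calls among the largest changes were lost under alternatives. An intronic LAMA3 peak (chr18:23718363-23718863) rose with IFNA and IL13 (log2 changes 0.85 ± 0.21, adjusted p = 0.0198 and 0.96 ± 0.21, adjusted p = 0.0024, limma), and the IFNA call was lost without unstimulated replicate 1, 2 or 4 or IFNA replicate 2 or 4 (adjusted p = 0.067 to 0.0982). OSM was also called higher at this LAMA3 peak (log2 change 1.11). An intronic peak of ITGA9, a chain that binds tenascin, (chr3:37608279-37608779) rose with IL13 (log2 change 0.99 ± 0.23, adjusted p = 0.00388), a call lost without unstimulated replicate 3 or IL13 replicate 1 (adjusted p = 0.0506 to 0.095). OSM was also called higher at this ITGA9 peak (log2 change 0.88). A LAMC1 peak (chr1:183039336-183039836) rose with IL13 (log2 change 0.94 ± 0.27, adjusted p = 0.0461), a call lost without unstimulated replicate 1, 3 or 4 or IL13 replicate 1, 2, 3 or 4 (adjusted p = 0.0596 to 0.174) as well as with library totals or median-of-ratios scaling. TNF and TGFB1 were called lower at this LAMC1 peak (log2 change -0.88 for each). The ITGA5 peak in GPR84-AS1 (chr12:54421116-54421616) rose with IFNA (log2 change 0.70 ± 0.19, adjusted p = 0.0471), a call lost without unstimulated replicate 1, 2, 3 or 4 or IFNA replicate 1, 2 or 4 (adjusted p = 0.0561 to 0.29) as well as with a GC correction.

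Of the lower ones, the ITGA8 peak in MINDY3 (chr10:15787370-15787870) fell with IL13 (log2 change -1.23 ± 0.35, adjusted p = 0.0382, limma), a call lost without unstimulated replicate 2, 3 or 4 or IL13 replicate 2 (adjusted p = 0.0763 to 0.439) as well as with a pseudocount of 2, quality weights or a GC correction. The ITGA1 peak in PELO-AS1 (chr5:52726917-52727417) fell with TNF (log2 change -1.23 ± 0.38, adjusted p = 0.0397), a call lost without unstimulated replicate 2, 3 or 4 or TNF replicate 1, 2 or 3 (adjusted p = 0.077 to 0.142). A peak upstream of ITGAV, the alpha V chain, (chr2:186575771-186576271) fell with IFNG (log2 change -1.02 ± 0.28, adjusted p = 0.0273), a call lost without unstimulated replicate 1 or 3 or IFNG replicate 1, 2 or 3 (adjusted p = 0.0596 to 0.197). Intronic LAMB4 peaks at chr7:108094232-108094732 and chr7:108095375-108095875 fell with IFNG (log2 changes -1.25 ± 0.29, adjusted p = 0.00333 and -0.65 ± 0.18, adjusted p = 0.0306). The first was lost without IFNG replicate 4 (adjusted p = 0.131) and the second lost without unstimulated replicate 1, 3 or 4 or IFNG replicate 3 (adjusted p = 0.0759 to 0.389).

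**Figure D3:**
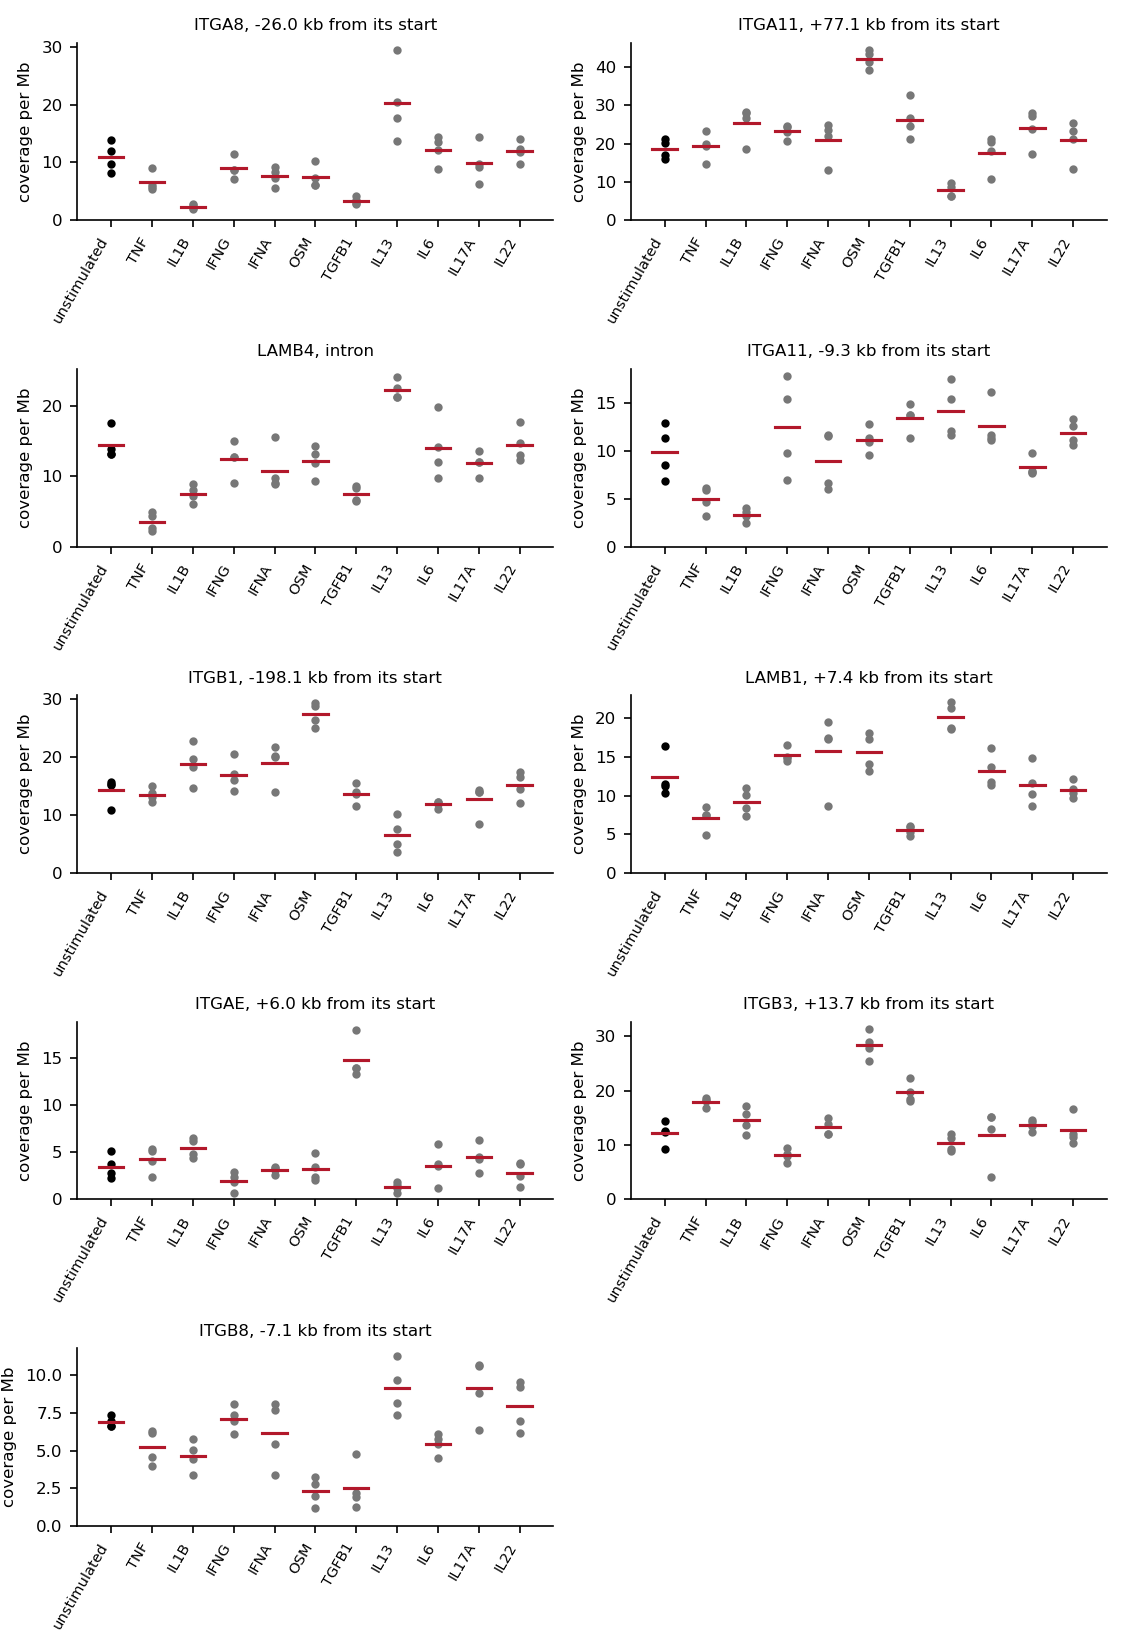
Coverage per Mb in every library, by group, at 9 of the 10 members with the smallest moderated F p, with a point for each of the 4 libraries and a line for their mean. TGFB1 libraries lie at 13.3 to 18 at the ITGAE peak, above all others.

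**Figure D4:**
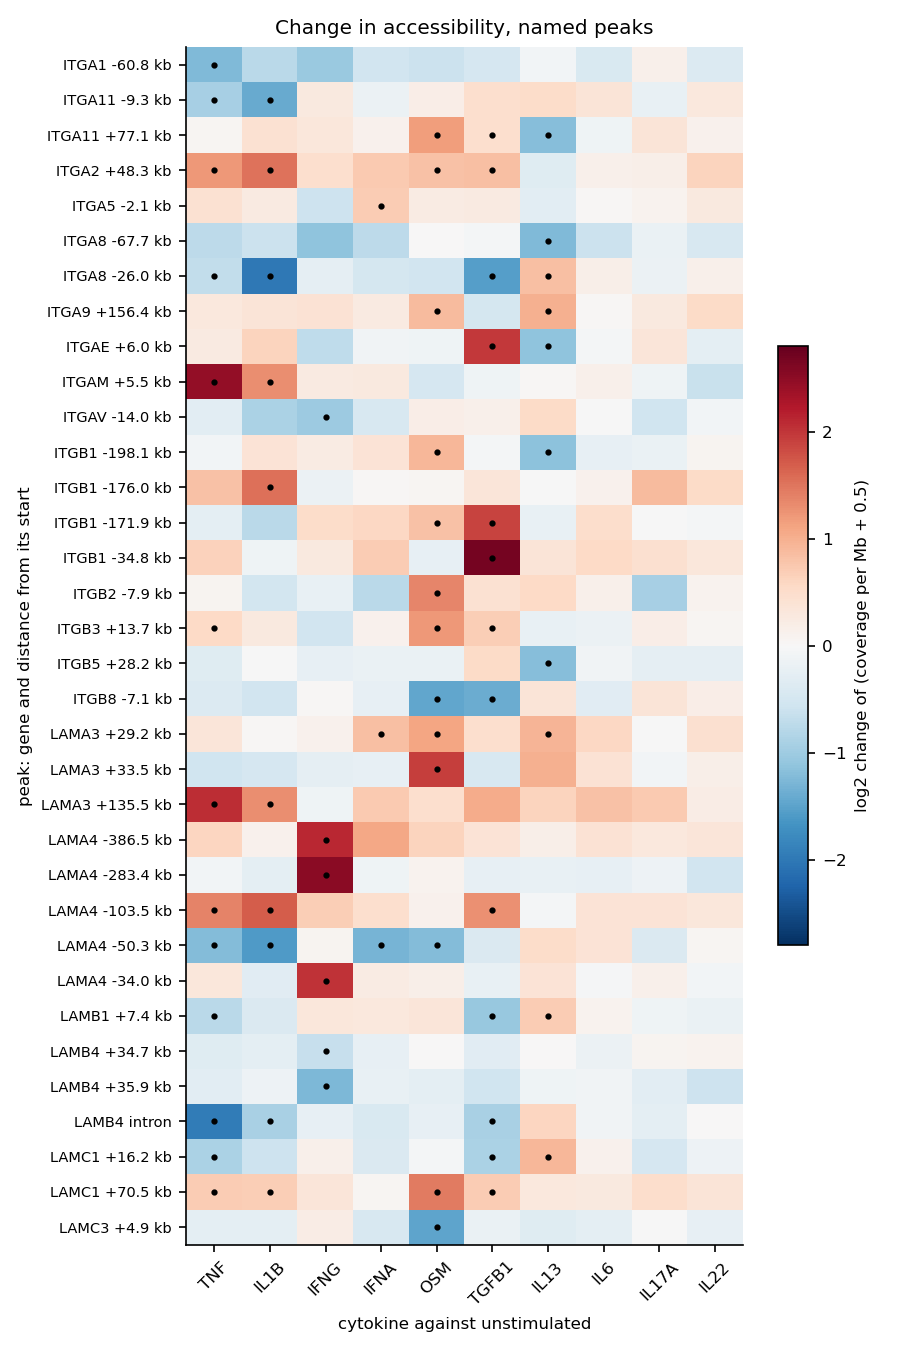
Log2 change of coverage per Mb + 0.5 with each cytokine against unstimulated cells at the named peaks, with a dot where the limma adjusted p was under 0.05. The IL6, IL17A and IL22 columns have no dot, and TGFB1 at the intronic peak of ITGB1 and ITGB1-DT reaches 2.67.

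Start sites were compared next. A tested peak lay within 1 kb of an annotated start for 37 of the 38 genes, all but ITGAD, and 11 of these nearest peaks carry the name of another gene. The start of any annotated transcript was accepted, so a start peak can lie far from the main start of its gene. The most open ITGB1 start peak (chr10:33005199-33005699) lies at -47.22 kb from its main start. The nearest LAMA2 peak (chr6:129490427-129490927) lies far from the most open one (chr6:128882915-128883415). The nearest and the most open start peaks of LAMA4 and ITGAE also lie far from the main starts of those genes. The nearest peak was called with a cytokine at 7 genes. LAMB1 (chr7:108003003-108003503) gave 13, 14.5, 16.7 and 17.1 coverage per Mb unstimulated, 7.35, 7.97, 9.9 and 10.9 with TNF, 7.58, 8.31, 8.78 and 10.5 with IL1B and 6.8, 7.21, 7.6 and 10.3 with TGFB1. All 3 groups lay below the unstimulated libraries, with log2 changes of -0.74 ± 0.17, adjusted p = 0.0017 (limma), -0.77 ± 0.17, adjusted p = 0.00122 and -0.91 ± 0.17, adjusted p = 5.81e-05. LAMB3, a beta chain of epithelial laminin, (chr1:209651055-209651555) gave 4.71, 6.92, 7.52 and 7.83 unstimulated and 11.4, 12.6, 13.4 and 18.7 with TNF, without overlap (log2 change 1.01 ± 0.2, adjusted p = 0.000101). LAMB2, a beta chain of muscle and kidney laminin, (chr3:49132417-49132917) gave 8.86, 11.3, 11.7 and 12.1 unstimulated and 5.23, 5.64, 5.93 and 7.19 with TGFB1, also without overlap (log2 change -0.82 ± 0.19, adjusted p = 0.00195).

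The other calls at nearest start peaks were each lost without at least 1 library. LAMB3 rose with IL1B (log2 change 0.66 ± 0.2, adjusted p = 0.0404, limma), lost without unstimulated replicate 1 or 3 or IL1B replicate 1, 3 or 4 (adjusted p = 0.0708 to 0.289), and with OSM (0.66 ± 0.2, adjusted p = 0.0307), lost without unstimulated replicate 1 or 3 or OSM replicate 1, 3 or 4 (adjusted p = 0.0501 to 0.19) as well as with library totals or median-of-ratios scaling. ITGB8 fell with TGFB1 (-0.49 ± 0.14, adjusted p = 0.0227), lost without unstimulated replicate 2 or 3 or TGFB1 replicate 2 (adjusted p = 0.11 to 0.158) as well as with library totals, median-of-ratios scaling or a GC correction. LAMA4 fell with TGFB1 (-0.74 ± 0.19, adjusted p = 0.00816), lost without unstimulated replicate 2 or TGFB1 replicate 3 (adjusted p = 0.0522 to 0.0738) as well as with median-of-ratios scaling. ITGB3 rose with OSM (0.56 ± 0.18, adjusted p = 0.0379), lost without unstimulated replicate 1, 2 or 4 or OSM replicate 1, 2 or 3 (adjusted p = 0.0669 to 0.152) as well as with library totals, median-of-ratios scaling or a GC correction. At LAMA2, an alpha chain of muscle laminin, the nearest peak is named for ARHGAP18 (chr6:129490427-129490927) and rose with OSM (0.55 ± 0.17, adjusted p = 0.0284), lost without unstimulated replicate 1, 3 or 4 or OSM replicate 2 or 3 (adjusted p = 0.0654 to 0.127) as well as with library totals or median-of-ratios scaling.

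The most open start-site peak was chosen after values were seen, by the highest unstimulated mean. It was called with a cytokine at 16 of the 37 genes. The unstimulated libraries are also the reference of each call, so this choice favours lower calls. No share over the starts of other genes was computed for this count or for the nearest peaks. The most open start peak of LAMA4, named for FAM229B (chr6:112149816-112150316), lies far from the main start of the gene. In the unstimulated libraries it gave 28.8, 34.6, 39 and 39.9 coverage per Mb. It gave 14.3, 15.3, 18.5 and 20.2 with IL1B, 14.5, 18.2, 20.2 and 22.6 with TGFB1 and 22, 22.5, 24.9 and 26.8 with TNF, each group below the unstimulated libraries. The log2 changes were -1.04 ± 0.13, adjusted p = 6.53e-12 (limma), -0.90 ± 0.13, adjusted p = 5.16e-09 and -0.55 ± 0.13, adjusted p = 0.00112. That of ITGAE is given above, and at LAMB1, LAMB3, ITGB8 and ITGB3 it is the nearest peak.

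The calls at the most open start peaks of the other 10 genes were each lost without at least 1 library. With TGFB1 the LAMA2 peak (chr6:128882915-128883415) fell (log2 change -0.59 ± 0.16, adjusted p = 0.0159, limma), lost without unstimulated replicate 1 or 3 or TGFB1 replicate 3 (adjusted p = 0.0765 to 0.0827) as well as with library totals, median-of-ratios scaling or a GC correction. It also fell with IFNA (-0.61 ± 0.16, adjusted p = 0.0425), lost without unstimulated replicate 1, 3 or 4 or IFNA replicate 1 or 3 (adjusted p = 0.104 to 0.413) as well as with quality weights, and was not called with OSM. ITGA2B, a platelet chain, fell with TGFB1 (-0.78 ± 0.23, adjusted p = 0.0289), lost without unstimulated replicate 1, 2 or 3 or TGFB1 replicate 1, 2 or 3 (adjusted p = 0.0549 to 0.137) as well as with library totals, median-of-ratios scaling or a GC correction. ITGA8 fell with TGFB1 (-0.66 ± 0.21, adjusted p = 0.0405), lost without unstimulated replicate 1, 2, 3 or 4 or TGFB1 replicate 2, 3 or 4 (adjusted p = 0.0509 to 0.179) as well as with library totals, median-of-ratios scaling or a GC correction. LAMB2, at a peak named for USP19, fell with TGFB1 (-0.60 ± 0.17, adjusted p = 0.0193), lost without unstimulated replicate 1 or 2 or TGFB1 replicate 3 (adjusted p = 0.061 to 0.116) as well as with library totals, median-of-ratios scaling or a GC correction. LAMB4 fell with TGFB1 (-1.01 ± 0.28, adjusted p = 0.016), lost without unstimulated replicate 2 or TGFB1 replicate 2 (adjusted p = 0.0601 to 0.0781) as well as with median-of-ratios scaling.

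ITGA1 rose with TNF (log2 change 0.46 ± 0.14, adjusted p = 0.0295, limma), lost without unstimulated replicate 2 or 4 or TNF replicate 1 or 4 (adjusted p = 0.083 to 0.111). ITGA5, the alpha chain of the fibronectin receptor, fell with IL1B (-0.68 ± 0.18, adjusted p = 0.0116), lost without IL1B replicate 2 (adjusted p = 0.111). ITGB5 fell with IL13 (-0.61 ± 0.17, adjusted p = 0.0371), lost without unstimulated replicate 1, 2 or 4 or IL13 replicate 1, 2 or 4 (adjusted p = 0.0694 to 0.157) as well as with a GC correction. ITGB1 rose with OSM (0.42 ± 0.12, adjusted p = 0.0202), lost without unstimulated replicate 1 or 4 or OSM replicate 2 or 3 (adjusted p = 0.0546 to 0.134) as well as with library totals or median-of-ratios scaling. ITGB4, a chain of the laminin receptor of epithelia, rose with IFNG at a peak named for GALK1 (0.86 ± 0.24, adjusted p = 0.0266), lost without unstimulated replicate 1 or 3 or IFNG replicate 1, 2 or 3 (adjusted p = 0.0527 to 0.237) as well as with a GC correction. The most open start peaks of ITGB1, ITGAV, ITGB8 and ITGA1 stood at 28.8 ± 1.54, 26.9 ± 2.47, 23.8 ± 3.53 and 21.7 ± 1.19 (SD, n = 4) in unstimulated cells. ITGB6, an epithelial partner of alpha V, stood at 0.151 ± 0.203.

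**Figure D5:**
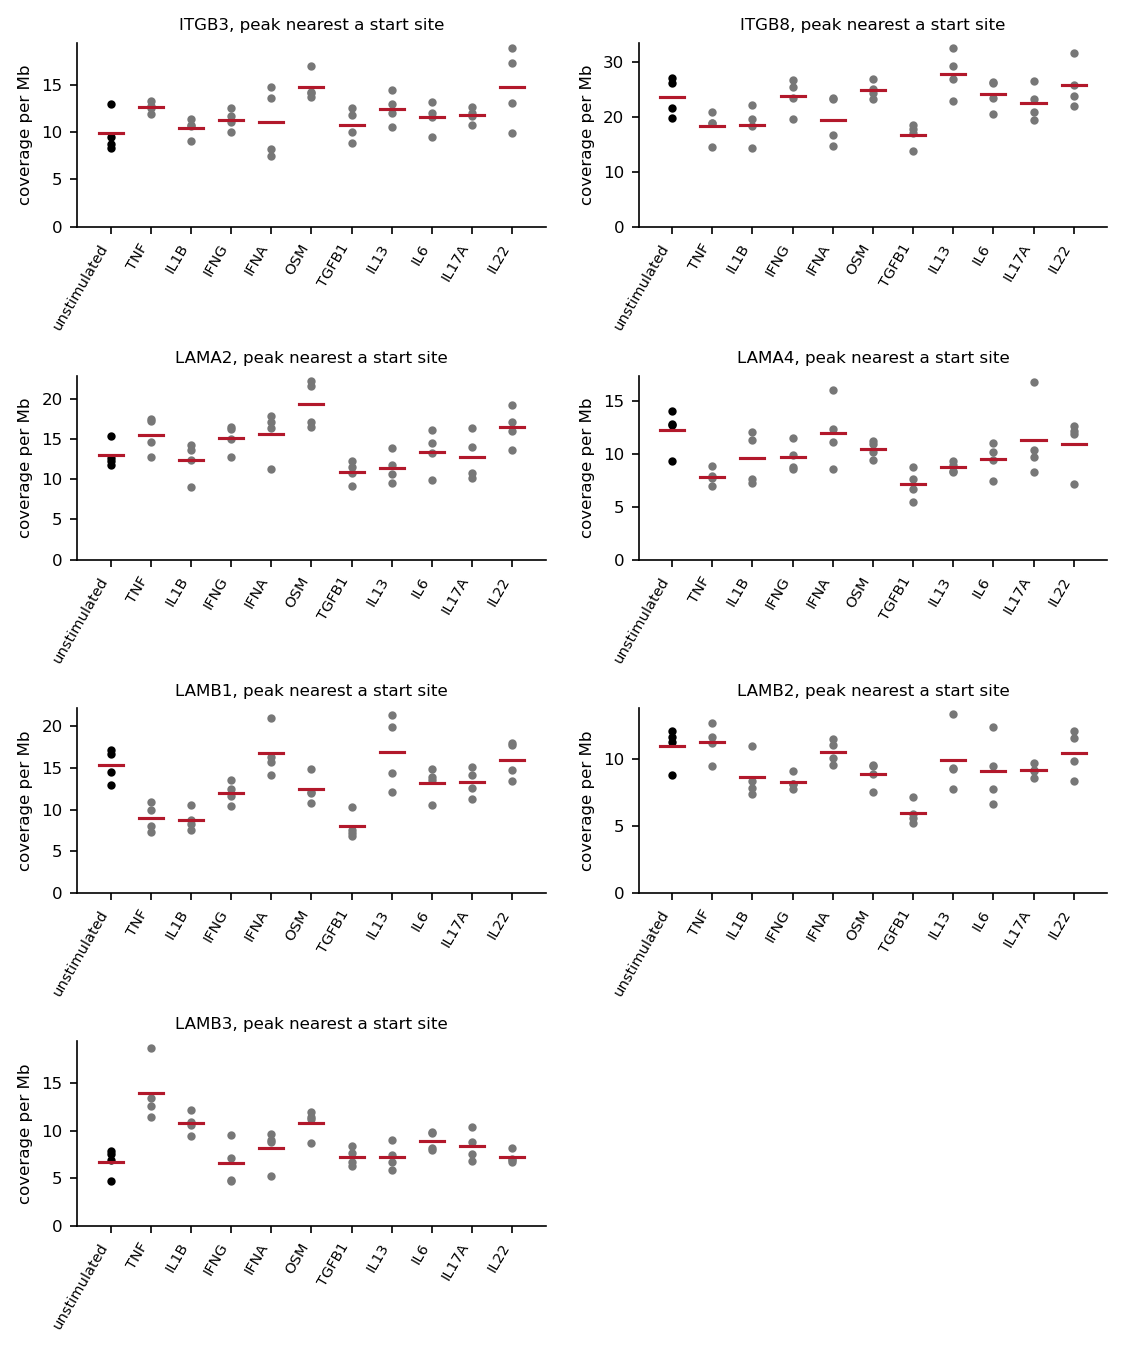
Coverage per Mb in every library at the peak nearest an annotated start, for the 7 genes where it was called with a cytokine, with a point for each of the 4 libraries of a group and a line for their mean. LAMB1 is lower with TNF, IL1B and TGFB1 than in the unstimulated libraries, and LAMB3 is higher with TNF.

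Cytokines were also compared directly. IL1B and TNF, used at different doses, differed at 17 members (1.3%, beside 1.32% of all tested peaks), of which 15 were lower with IL1B, and the count was 10 without IL1B replicate 4 and 11 without TNF replicate 2. IL1B was thus the higher at 11.8% of these calls, beside 16.5% of the calls over all tested peaks. IFNA and IFNG differed at 21 members (1.6%, beside 1.03%). TGFB1 differed from TNF at 58 (4.43%, beside 4.79%), from OSM at 162 (12.4%, beside 14.7%) and from IL13 at 147 members (11.2%, beside 8.75%). The direction of these calls moved with the scaling. TGFB1 was higher than OSM at 44 of 162 members (27.2%), at 113 of 147 (76.9%) with library totals and at 138 of 161 (85.7%) with median-of-ratios scaling. The calls over all tested peaks moved too, at 32.6%, 67.1% and 76.1%. Against TNF TGFB1 was higher at 18 of 58, 29 of 55 and 31 of 57 (31%, 52.7% and 54.4%, beside 22%, 45.5% and 51.2%). Against IL13 it was higher at 55 of 147, 82 of 142 and 88 of 143 (37.4%, 57.7% and 61.5%, beside 36.5%, 58% and 64.9%). IFNA was higher than IFNG at 8 of 21, 11 of 24 and 13 of 26 (38.1%, 45.8% and 50%, beside 20.4%, 23.5% and 24.3%).

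Strings were counted in the central 300 bases of the members that changed, some of which are called with several cytokines. The AP-1 string was in 25 of 45 members raised by TNF (55.6%), 12 of 19 members raised by IL1B (63.2%), 23 of 41 members raised by OSM (56.1%) and 9 of 12 members lowered by IL13 (75%), beside 21.5% of all tested peaks. It was also in 13 of 29 members raised by TGFB1 (44.8%), 3 of 5 raised by IFNA (60%) and 1 of 23 lowered by TNF (4.35%). Of members lowered by IL1B, OSM and TGFB1 it was in 21.4%, 27.8% and 16.7%. NF-kB matches were in 10 of 45 members raised by TNF (22.2%) and 5 of 19 members raised by IL1B (26.3%), beside 6.24%. The ISRE string was in 7 of 13 members raised by IFNG (53.8%), beside 5.77%, and the STAT6 string in 4 of 11 members raised by IL13 (36.4%), beside 8.94%. GAS matches were in 4 of 11 members raised by IL13 (36.4%) and 1 of 13 members raised by IFNG (7.69%), beside 11.1%. TEAD matches were in 16 of 36 members lowered by TGFB1 (44.4%), 10 of 23 members lowered by TNF (43.5%) and 11 of 28 members lowered by IL1B (39.3%), but also in 5 of 11 members raised by IL13 (45.5%) and 4 of 5 members raised by IFNA (80%), beside 19.8%. The SMAD string was in 1 of 29 members raised by TGFB1 (3.45%), beside 0.206%. C/EBP matches were in 8 of 23 members lowered by TNF (34.8%), 10 of 28 lowered by IL1B (35.7%) and 11 of 45 raised by TNF (24.4%), beside 17.3%. RUNX matches were in 12 of 29 members raised by TGFB1 (41.4%) and 3 of 28 lowered by IL1B (10.7%), beside 20.7%. None of these shares was tested, and the shares among all called peaks were not computed.

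Other genes of the pathway were counted from lists. For 18 genes of integrin ligands and basement membranes, such as fibronectin (FN1), tenascin C (TNC) and type IV collagens, 39 of 809 peaks rose and 31 fell with TNF (4.82% and 3.83%, beside 2.68% and 1.46% of all). This TNF balance moved with the scaling, at 36 and 41 with library totals and 38 and 38 with median-of-ratios scaling. With IL1B 10 rose and 53 fell (1.24% and 6.55%, beside 1.44% and 1.75%). With IL13 38 rose and 5 fell (4.7% and 0.618%, beside 0.756% and 0.645%). With OSM 56 rose and 13 fell (6.92% and 1.61%, beside 4.12% and 1.05%), and 43 and 15 did with library totals or with median-of-ratios scaling. With TGFB1 14 rose and 21 fell (1.73% and 2.6%, beside 1.10% and 2.87%), but 21 rose and 15 fell with library totals and 29 and 13 with median-of-ratios scaling. THBS1, thrombospondin 1, held 35 of the 53 lower IL1B peaks and 30 of the 56 higher OSM peaks. TNC held 13 of the 38 higher IL13 peaks.

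For 21 adhesion proteins inside the cell, such as talins, kindlins and the kinase PTK2, the TNF shares lay near the background, with 28 of 965 peaks higher and 19 lower (2.9% and 1.97%, beside 2.68% and 1.46% of all). With TGFB1 9 rose and 40 fell (0.933% and 4.15%, beside 1.10% and 2.87%), and 6 of the lower peaks lay at vinculin (VCL) and 8 at tensin 3 (TNS3). This balance depended on the scaling, since 16 rose and 23 fell with library totals, and 18 and 19 did with median-of-ratios scaling. With OSM 35 rose and 8 fell (the higher ones 3.63%, beside 4.12%), but 12 and 10 did with library totals and 10 and 10 with median-of-ratios scaling.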

How the data were processed

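ATAC-seq libraries of Ccd18-Co fibroblasts were grouped by the labels, 4 per group. The authors processed the reads with the ENCODE ATAC-seq pipeline (version 2.2.3) on hg38 with MACS2 peaks, and the deposited table holds the coverage signal of each library over peaks of 500 bases, not scaled to depth. Peak coordinates are printed as deposited. The study's methods describe peaks of variable length for the bulk libraries and a fixed-width ArchR set of this size for its single-cell ATAC-seq, and do not say whether the deposited table uses the latter. Total coverage ran from 148.8 to 823.1 Mb per library, and shallower libraries give less precise values.

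Coverage was divided by the library total in Mb and by a composition factor (trimmed mean, 30% of log ratios and 5% of means at each end). Peaks with a log2 mean of coverage per Mb above -3 were kept (227 left out), a pseudocount of 0.5 was added, and log2 values were fitted with limma 3.58.1 in R 4.3.3 (trend, 44 libraries, group only, two-sided). Adjusted p-values are Benjamini-Hochberg over all 407156 tested peaks of a contrast. Because coverage is not a read count, no count model was used. Log2 changes are on the log2(value + pseudocount) scale, which understates changes of low peaks.

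Peaks are named in the text when they were among the 3 largest higher or lower called changes for a cytokine (mean coverage per Mb of at least 1, no overlap of the 4 and 4 libraries), nearest to a start within 1 kb, or among the 10 smallest moderated F p-values. Of what this rule and the marker check name, 2 genes and 1 sequence are not reported here, and all counts include them. The members, lists and motif strings were chosen with earlier results of these data known. Alternatives were other scalings, a pseudocount of 2, filters, quality weights, a GC correction, a replicate block and leaving out each library. Replicate numbers were not taken to pair libraries (0 of 220 pairs of the same number had a correlation over 0.1, median 0.003). However, 23 of 44 libraries were closest on average to their own number, where 11 would be with no pairing.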

Additional observations from a re-analysis of the deposited data

Results flagged for a closer look

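The values of the 10 members with the smallest moderated F p, and the total coverage, were searched for libraries far from the other 3 of their group (121 groups of 4, by Dixon's ratio). There were 9 such libraries, and chance alone sets apart about 1 in 20 groups. At the LAMB4 peak, which lies in an intron, IFNA replicate 4 gave 15.5 coverage per Mb, against a group median of 9.37. At the ITGA11 peak chr15:68441172-68441672, IL6 replicate 2 gave 16.2 (median 11.5) and IL17A replicate 1 gave 9.79 (median 7.87). At the ITGB1 peak chr10:33156030-33156530, unstimulated replicate 2 gave 10.9 (median 15.3) and IL17A replicate 3 gave 8.52 (median 13.9). At the ITGAE peak chr17:3794932-3795432, TGFB1 replicate 1 gave 18 (median 13.9). Total coverage stood apart in TNF replicate 4 at 726.6 Mb (median 385.9), IFNG replicate 2 at 657.5 Mb (median 439.5) and IFNA replicate 2 at 823.1 Mb (median 387.4).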

How the results depend on the processing

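Counts of called members are over the 1310 members. With library quality weights the counts were 26 for IFNG, 11 for IFNA, 97 for OSM, 35 for IFNA against IFNG and 259 for TGFB1 against OSM. The IL6 count was 1 with a pseudocount of 2, with a filter of mean coverage of at least 1 and with the replicate block, and the cause was not tested. With the replicate block the counts were 70 for TNF, 62 for OSM and 69 for TGFB1, and no other count moved by over 1.5 times. The labels do not say that a number marks a shared culture, and 0 of 220 pairs of the same number had a correlation over 0.1, but 23 of 44 libraries were closest on average to their own number, where 11 would be with no pairing, a hint of pairing in the data. Leaving out single libraries gave 45 to 53 for TNF, 36 to 43 for IL1B, 10 to 18 for IFNG, 3 to 10 for IFNA, 32 to 52 for OSM, 40 to 56 for TGFB1, 12 to 24 for IL13, 0 to 2 for IL6 and 0 for IL17A and IL22. It gave 10 to 18 for IL1B against TNF, 14 to 19 for IFNA against IFNG, 39 to 54 for TGFB1 against TNF, 120 to 144 for TGFB1 against OSM, 117 to 134 for TGFB1 against IL13 and 321 to 357 for any difference among the groups. With the GC correction members that rose were 86.1% of the OSM calls and 33.9% of the TGFB1 calls, beside 89% and 23.8% over all tested peaks. Of 111 changes under the naming rule 69 kept their call in each alternative run for them, 42 lost it in at least 1, 15 of them under another scaling, and none turned its direction. Peaks near 1 coverage per Mb rest on few reads in the shallowest libraries, so small changes there were not detectable at this depth.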
